A study of Sus scrofa with 12 samples.

Results

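The ZNF genes are the genes whose pig symbol is ZNF followed by a number, a naming series given mostly to proteins that carry C2H2 zinc fingers. They were taken from the deposited gene table of porcine ventral annulus fibrosus, the fibrous outer wall of the intervertebral disc, by symbol and by a count minimum, with no use of the difference between the groups. Of 22198 rows in the table, 11700 could be given a symbol and 170 of these were ZNF rows. Of the 170, 155 reached a minimum of 10 counts in all 6 libraries of either group or of both and are the members described here, among 12597 genes that met the same minimum.

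A C2H2 zinc finger is a short fold in which a pair of cysteines and a pair of histidines hold a zinc ion. Most ZNF proteins string many fingers in a row to read a DNA sequence, and the largest branch in mammals adds a KRAB box at the amino end, which recruits the corepressor TRIM28 and through it enzymes that write silencing chromatin marks, chiefly over transposable elements. A smaller branch has few and widely spaced fingers, and several of its members bind RNA instead. Single members such as ZNF423 and ZNF384 are known from work on mesenchymal and bone cells in rodents.

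The study asked how disc tissue responds to a single session of repeated manual loading of the spine. Hyperloaded samples came from 4 anesthetized pigs whose L3 vertebra was loaded by hand over 4 hours, at intervals of 1 or 2 minutes, and Non-loaded Control samples came from 6 pigs that were anesthetized and left unloaded. All pigs were a Duroc cross (Large White × Landrace) aged 3 to 4 months, and RNA was taken from the mid-ventral wedge of the L3-4 annulus at the end of the session. The Non-loaded Controls were 4 females and 2 males, and the Hyperloaded pigs were 2 females and 2 males. Sex was not part of any test below. There were 6 libraries in each group. As the 6 Hyperloaded libraries come from 4 pigs, 2 of them are repeat extracts of tissue already in the set, and because the labels do not say which, every p-value below treats them as separate animals and is too small to that extent.

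The 6 Hyperloaded libraries held 12484228 to 19298415 counts and the 6 Non-loaded Control libraries 12519458 to 24897110. All 155 members had counts above 0 in all 12 libraries. Levels are given as CPM, counts scaled to a common library total after TMM scaling (a correction for differences in composition between libraries), and are compared only within a gene. The marker COL2A1 averaged 49407 CPM in Hyperloaded and 290404 CPM in Non-loaded Control annuli, and COL1A2 averaged 167750 CPM in Hyperloaded and 111317 CPM in Non-loaded Control annuli, so both collagens were present in both groups. Of 7 fibrous annulus markers tested, 1 fell (COL3A1, at -1.76) and none rose, with 5 below 0 and a median of -0.49 (edgeR; 1 was lower at an unadjusted p under 0.05). The libraries differed in other cell markers. Skeletal muscle markers summed to 21.9 to 28971 CPM in Hyperloaded libraries (28971 in Hyperloaded 2, 3043 in Hyperloaded 6 and 804 in Hyperloaded 3) against 6.03 to 140 CPM in Non-loaded Controls, and 3 of the 3 tested rose. Macrophage markers summed to 186 to 334 CPM in Hyperloaded libraries, against 32.0 to 187 CPM in Non-loaded Controls, with 8 of 10 tested higher. Chondrocyte markers summed to 4644 to 163446 CPM in Hyperloaded libraries, against 135202 to 688006 CPM in Non-loaded Controls, with 2 of 8 lower. All 8 chondrocyte markers were below 0, with a median of -1.82, and 6 were lower at an unadjusted p under 0.05 (edgeR). Endothelial markers summed to 321 to 522 CPM in Hyperloaded libraries, against 404 to 707 CPM in Non-loaded Controls, with 2 of 4 lower, and T cell markers to at most 1.74 CPM in Hyperloaded libraries and 1.11 CPM in Non-loaded Controls. The part that these shifts have in any ZNF difference was not tested, and in whole tissue fewer cells of a type and less RNA per cell cannot be told apart.

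The sequences that set the 2 kinds of member apart are shown here because the members that moved came from both. The first pair is from ZNF575 and ZNF175, which fell and whose fingers follow each other closely, and each line runs from the first cysteine of 1 finger to the last histidine of the next. The next 3 lines are single fingers of ZNF346, which also fell and whose fingers stand far apart in separate exons. All are coding-exon sequence of the pig genome, read 5′ to 3′ on the strand of the gene from RefSeq's annotation of Sscrofa11.1. Capitals mark the codons of the cysteines (TGC or TGT) and histidines (CAC or CAT) that matched the finger pattern described below. In ZNF346 finger 2 the tgc codon right after the first capitals also codes for a cysteine that fits the pattern. Which of both holds the zinc was not tested.
ZNF575 fingers 1 and 2 (chr6:50397960-50398106, plus strand): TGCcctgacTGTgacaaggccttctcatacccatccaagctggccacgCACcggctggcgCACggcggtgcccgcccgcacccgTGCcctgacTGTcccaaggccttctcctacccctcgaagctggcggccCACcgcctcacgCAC
ZNF175 fingers 8 and 9 (chr6:58409279-58409425, minus strand): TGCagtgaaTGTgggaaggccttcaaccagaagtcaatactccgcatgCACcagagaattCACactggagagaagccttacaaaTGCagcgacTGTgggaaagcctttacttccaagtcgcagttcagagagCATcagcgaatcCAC
ZNF346 finger 2 (chr2:80884916-80884987, minus strand): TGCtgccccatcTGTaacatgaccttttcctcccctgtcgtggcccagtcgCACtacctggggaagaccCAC
ZNF346 finger 3 (chr2:80880671-80880739, minus strand): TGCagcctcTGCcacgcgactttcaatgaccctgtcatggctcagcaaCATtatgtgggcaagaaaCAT
ZNF346 finger 4 (chr2:80875226-80875294, minus strand): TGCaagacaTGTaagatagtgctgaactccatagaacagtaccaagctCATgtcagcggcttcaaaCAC
In ZNF175 and ZNF575 the stretch between both fingers shown codes for 7 residues and the histidines are 3 residues apart. In ZNF346 the fingers shown are separated by 44 and 31 residues and the histidines are 5 apart.

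Between Hyperloaded and Non-loaded Control annuli, 6 of the 155 members rose and 16 fell at an adjusted p under 0.05 (edgeR quasi-likelihood test, 2-sided, Benjamini-Hochberg over all 12597 genes). That is 3.87% higher and 10.3% lower, and the share of all tested genes called was 10.8% higher and 8.45% lower, or 19.3% in either direction. The share that fell was thus near that of all genes, and the share that rose was below it. At an unadjusted p under 0.05, 11 members were higher and 40 lower, where 19.2% of all genes were higher and 17.3% lower. With the thresholds of the study (2-fold or more, unadjusted p no higher than 0.01), 3 members were higher and 6 lower, where 5.89% of all genes were higher and 2.54% lower. The fitted log2 fold-change was below 0 in 100 of the 155 (64.5%, against 49.6% of all genes), with a median of -0.16 against 0.0049 for all genes. The members' median lay 0.17 below the median of all genes on the log2 scale under TMM scaling and 0.16 below it when libraries were scaled by their totals alone. The sign of the members' own median depended on that choice, being -0.16 with TMM and 0.12 with totals alone, where the median of all genes moved to 0.28. Under totals alone the calls were 9 higher and 3 lower, where 15.6% of all genes were higher and 2.6% lower. Without Hyperloaded 2, 3 and 6, the libraries with most muscle transcripts, no member was called (edgeR; 6 were higher and 23 lower at an unadjusted p under 0.05), and the median was -0.16. In that fit 1% of all genes were called higher and 0.315% lower, and 11.9% were higher and 10.8% lower at an unadjusted p under 0.05, so a count of 0 members is near what all genes gave. There the members' median minus that of all genes was -0.135, against -0.167 with all 12 libraries.

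**Figure D1:**
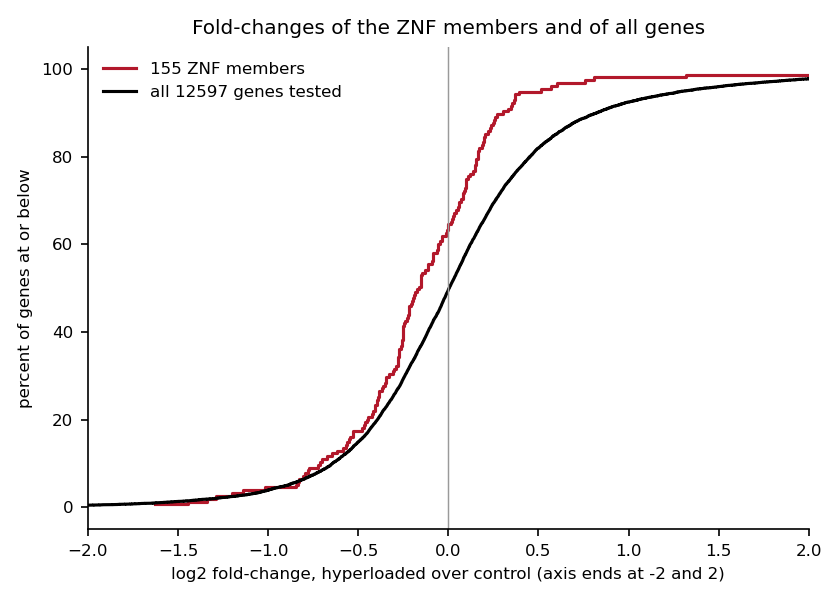
Cumulative percent of genes (vertical axis) by log2 fold-change of Hyperloaded over Non-loaded Control (horizontal axis, cut at -2 and 2), for the 155 ZNF members in red and for all 12597 tested genes in black. The red line lies left of the black one around 0, where 64.5% of the members and 49.6% of all genes are below 0.

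**Figure D2:**
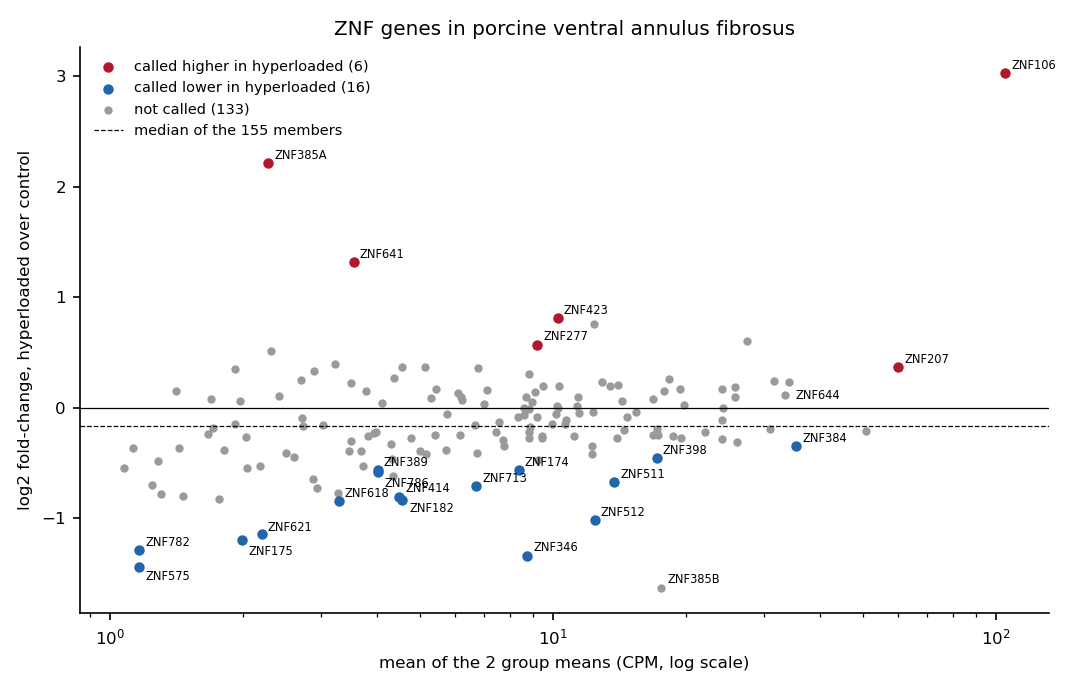
Each point is 1 of the 155 members, by its mean level (horizontal axis, CPM on a log scale) and its log2 fold-change of Hyperloaded over Non-loaded Control (vertical axis). Red points are the 6 called higher, blue points the 16 called lower and grey points the 133 not called, and the dashed line is the members' median of -0.16.

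Part of these counts follows from the count minimum. Of the 155, 144 reached it in both groups, 3 in Hyperloaded libraries alone and 8 in Non-loaded Control libraries alone, so 11 passed through 1 group alone. In 9 of these 11 the fitted change ran towards the group that passed, and the exceptions were ZNF529, which passed in Hyperloaded libraries at -0.78, and ZNF200, which passed in Non-loaded Control libraries at 0.15. Among the 144, 5 were called higher (3.47%) and 13 lower (9.03%), with a median of -0.15. Of all genes with the minimum in all 12 libraries, 9.83% were called higher and 8.29% lower, with a median of 0.0022. The other 15 ZNF rows stayed below the minimum and were not tested. The nearest of these, ZNF404, ZNF630 and ZNF660, had a lowest count of 9 in their better group, and the nearest members inside, ZNF471 with 10 and ZNF354C, ZNF529 and ZNF555 with 11, were not called.

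ZNF346, a zinc finger protein that binds double-stranded RNA and gathers in the nucleolus, fell in Hyperloaded annuli. Its gene lies at chr2:80871576-80895592 (Sscrofa11.1, minus strand) and codes for 310 residues with 4 fingers. It measured 3.62, 4.46 and 6.81 CPM (lowest, median and highest) in Hyperloaded annuli, against 6.98, 11.7 and 22.8 CPM in Non-loaded Controls. The groups did not overlap, although Hyperloaded 1 at 6.81 came close to Non-loaded Control 5 at 6.98. The log2 fold-change was -1.34 ± 0.29 (SE, n = 6 each, edgeR adjusted p = 0.0118), or 0.395 of the control level, and the fall was called in each of the 12 fits that left out 1 library, with values from -1.45 to -1.08. Without Hyperloaded 2, 3 and 6 it was -1.01 with an edgeR adjusted p of 0.135.

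Other members tied to RNA moved in both directions. Of 10 such members tested, from a list that also holds ribosome and splicing partners, 3 rose and 1 fell, where 10.8% of all genes rose and 8.45% fell, with a median of 0.18. ZNF106, an RNA-binding protein that in mice is needed to maintain muscle and its motor neurons, had the largest rise in the family. Its levels were 21.2, 40.4 and 802 CPM in Hyperloaded annuli, against 19.4, 22.5 and 26.3 CPM in Non-loaded Controls. The rise came from 3 libraries, Hyperloaded 2 at 802, Hyperloaded 6 at 194 and Hyperloaded 3 at 54.5 CPM, which are also the 3 with most muscle transcripts, and the other 3 measured 21.2 to 26.3 CPM. The log2 fold-change was 3.03 ± 0.87 (edgeR adjusted p = 0.0311), it was called in 4 of the 12 fits that left out 1 library, it was 1.48 without Hyperloaded 2 (edgeR adjusted p = 0.0684), and it was 0.041 without all 3 (edgeR adjusted p = 0.873).

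ZNF385A, which binds mRNA and acts with p53, measured 1.08, 2.52 and 11.12 CPM in Hyperloaded annuli, against 0.542, 0.659 and 1.22 CPM in Non-loaded Controls. Only Hyperloaded 3 fell inside the control range, and Hyperloaded 2 was highest. The log2 fold-change was 2.22 ± 0.54 (edgeR adjusted p = 0.0174), called in all 12 fits that left out 1 library, and lowest without Hyperloaded 2 (1.498). Its level was low, with 8 counts in its poorest library, and it reached the count minimum in Hyperloaded libraries alone. The 3 other genes of its subfamily were not called. ZNF385B had the lowest fitted value of all members, -1.63 ± 0.73 (edgeR adjusted p = 0.125). It ranged from 0.183 CPM in Hyperloaded 4 to 17.0 CPM in Hyperloaded 5, against 12.0 to 39.3 CPM in Non-loaded Controls, a spread within the Hyperloaded group wider than for any member called lower. ZNF385C and ZNF385D had log2 fold-changes of -0.22 and 0.25.

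ZNF207, which loads a checkpoint protein onto kinetochores and binds microtubules, was 52.6, 68.2 and 79.9 CPM in Hyperloaded annuli, against 46.2, 52.3 and 58.1 CPM in Non-loaded Controls. The rise was small, with a log2 fold-change of 0.37 ± 0.12 (edgeR adjusted p = 0.0439), and the call was kept in 1 of the 12 fits that left out 1 library. ZNF277, known to bind a small ribosomal subunit protein and Polycomb factors, was 7.44, 10.7 and 13.6 CPM in Hyperloaded annuli, against 5.61, 7.23 and 9.72 CPM in Non-loaded Controls. Its log2 fold-change was 0.57 ± 0.18 (edgeR adjusted p = 0.0410), called in 3 of those 12 fits.

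ZNF423, a many-fingered transcription factor that works with SMAD and EBF proteins and marks preadipocytes in mice, was the 1 called gene among the 4 tested from a list of skeletal and connective tissue members. It measured 9.48, 12.8 and 18.01 CPM in Hyperloaded annuli, against 5.29, 7.41 and 9.80 CPM in Non-loaded Controls. Only Hyperloaded 2 fell inside the control range. The log2 fold-change was 0.81 ± 0.20 (edgeR adjusted p = 0.0168), and it was called in all 12 fits that left out 1 library. ZNF503, ZNF703 and ZNF521, from the same list, had log2 fold-changes of 0.36, -0.22 and 0.19 and were not called. The 1 rise was 25% of the 4 tested, where 10.8% of all genes rose.

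**Figure D3:**
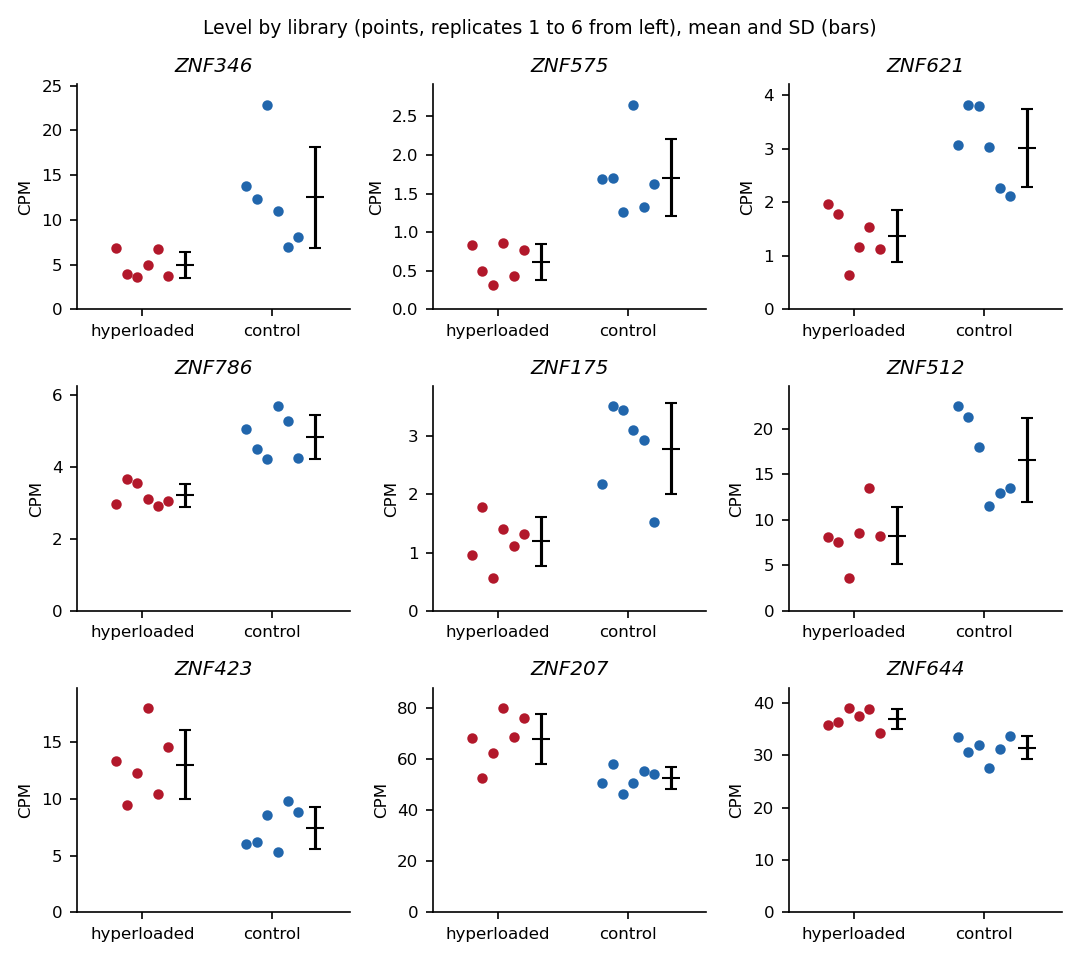
CPM of 9 members in each library, with the 6 Hyperloaded libraries in red on the left and the 6 Non-loaded Control libraries in blue on the right of each panel (replicates 1 to 6 from left), and mean and SD as black bars. The groups do not overlap for ZNF346, ZNF575, ZNF621, ZNF786 and ZNF644, while ZNF175, ZNF512, ZNF423 and ZNF207 overlap.

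Of the 16 members that fell, 14 matched a RefSeq protein, and 9 of these had closely following fingers and 5 a KRAB box. ZNF575, a C2H2 protein at chr6:50395042-50398868 with 6 fingers, had the smallest p of the family. It measured 0.317, 0.635 and 0.855 CPM in Hyperloaded annuli, against 1.27, 1.66 and 2.65 CPM in Non-loaded Controls. Every Hyperloaded library was below every control library, with a log2 fold-change of -1.45 ± 0.27 (edgeR adjusted p = 0.00766). The counts were few, down to 5 in a library, and the gene reached the minimum in Non-loaded Controls alone. ZNF175, a KRAB protein that in human macrophages represses viral transcription, has 13 fingers in a run at chr6:58407424-58419481. It was 0.571, 1.22 and 1.79 CPM in Hyperloaded annuli, against 1.52, 3.01 and 3.50 CPM in Non-loaded Controls. Only Non-loaded Control 6 reached into the Hyperloaded range, and the log2 fold-change was -1.20 ± 0.28 (edgeR adjusted p = 0.0143). Like ZNF575 it reached the count minimum in Non-loaded Controls alone. ZNF786, a KRAB gene with 12 fingers, measured 2.91, 3.08 and 3.67 CPM in Hyperloaded annuli, against 4.22, 4.79 and 5.69 CPM in Non-loaded Controls. They did not overlap, for a log2 fold-change of -0.59 ± 0.14 (edgeR adjusted p = 0.0143). ZNF621 was likewise separate, at 0.635, 1.35 and 1.97 CPM in Hyperloaded annuli, against 2.13, 3.06 and 3.82 CPM in Non-loaded Controls, with a log2 fold-change of -1.14 ± 0.26 (edgeR adjusted p = 0.0142). These 4 falls were called in all 12 fits that left out 1 library.

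Of the 155, 5 members had every Hyperloaded library below every control library (3.23%, against 2.98% of all genes), namely ZNF575, ZNF786, ZNF621, ZNF346 and ZNF852, and 1 had every Hyperloaded library above, against 3.81% of all genes. That 1 was ZNF644, a partner of the histone methyltransferase EHMT2, at 34.1, 36.9 and 39.0 CPM in Hyperloaded annuli, against 27.6, 31.6 and 33.6 CPM in Non-loaded Controls. Its log2 fold-change of 0.23 ± 0.086 did not pass the test (edgeR adjusted p = 0.0712). ZNF852 was not called either, at -0.72 ± 0.25 (edgeR adjusted p = 0.0600). Both are named here after their values were seen.

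Among 17 tested members from a list of promoter and chromatin factors, 2 fell (11.8%) and none rose, with a median of -0.12. The shares of all genes were 8.45% lower and 10.8% higher. At an unadjusted p under 0.05 (edgeR), 5 of the 17 were lower (29.4%, against 17.3% of all genes) and 2 higher. ZNF512 was 3.62, 8.13 and 13.4 CPM in Hyperloaded annuli, against 11.5, 15.7 and 22.4 CPM in Non-loaded Controls. Hyperloaded 5 alone reached the control range, and the log2 fold-change was -1.02 ± 0.27 (edgeR adjusted p = 0.0220). Of the 12 fits that left out 1 library, only that without Non-loaded Control 2 lost the call (edgeR adjusted p = 0.0528). Over all 23 alternatives the fall of ZNF512 was called in 18. ZNF384, which in rodent bone cells binds promoters of collagen and matrix-protease genes, was 24.9, 31.2 and 38.8 CPM in Hyperloaded annuli, against 36.0, 39.2 and 43.7 CPM in Non-loaded Controls. Its fall was small, -0.35 ± 0.11 on the log2 scale (edgeR adjusted p = 0.0439), and was called in 2 of the 12 fits that left out 1 library. ZNF512, ZNF175, ZNF575 and ZNF621 are members that the study itself tabulated from these samples, so their direction is not independent evidence.

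ZNF511 lies at chr14:141253373-141263226. It measured 8.19, 9.96 and 14.4 CPM in Hyperloaded annuli, against 13.7, 16.9 and 21.0 CPM in Non-loaded Controls. Only Hyperloaded 5 entered the control range, and the log2 fold-change was -0.67 ± 0.15 (edgeR adjusted p = 0.0142). The 8 remaining falls were in ZNF618, ZNF414, ZNF174, ZNF398, ZNF389, ZNF182, ZNF782 and ZNF713, named after their values were seen, all with overlapping groups and with edgeR adjusted p from 0.0162 for ZNF618 to 0.0474 for ZNF713. Of these, ZNF618 was called in all 12 fits that left out 1 library. ZNF782, a KRAB gene, was at -1.29 ± 0.41 on as few as 2 counts in a library, and reached the count minimum in Non-loaded Controls alone. ZNF182, a KRAB gene on the X chromosome, was 1.40 to 4.79 CPM in Hyperloaded annuli, against 4.71 to 7.18 CPM in Non-loaded Controls. ZNF641, the last of the 6 that rose, was 1.71, 4.08 and 12.95 CPM in Hyperloaded annuli, against 1.24, 1.98 and 3.13 CPM in Non-loaded Controls, with Hyperloaded 2 far above the rest. Its log2 fold-change was 1.32 ± 0.43 (edgeR adjusted p = 0.0483) and was 0.41 without Hyperloaded 2, 3 and 6 (edgeR adjusted p = 0.483).

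**Figure D4:**
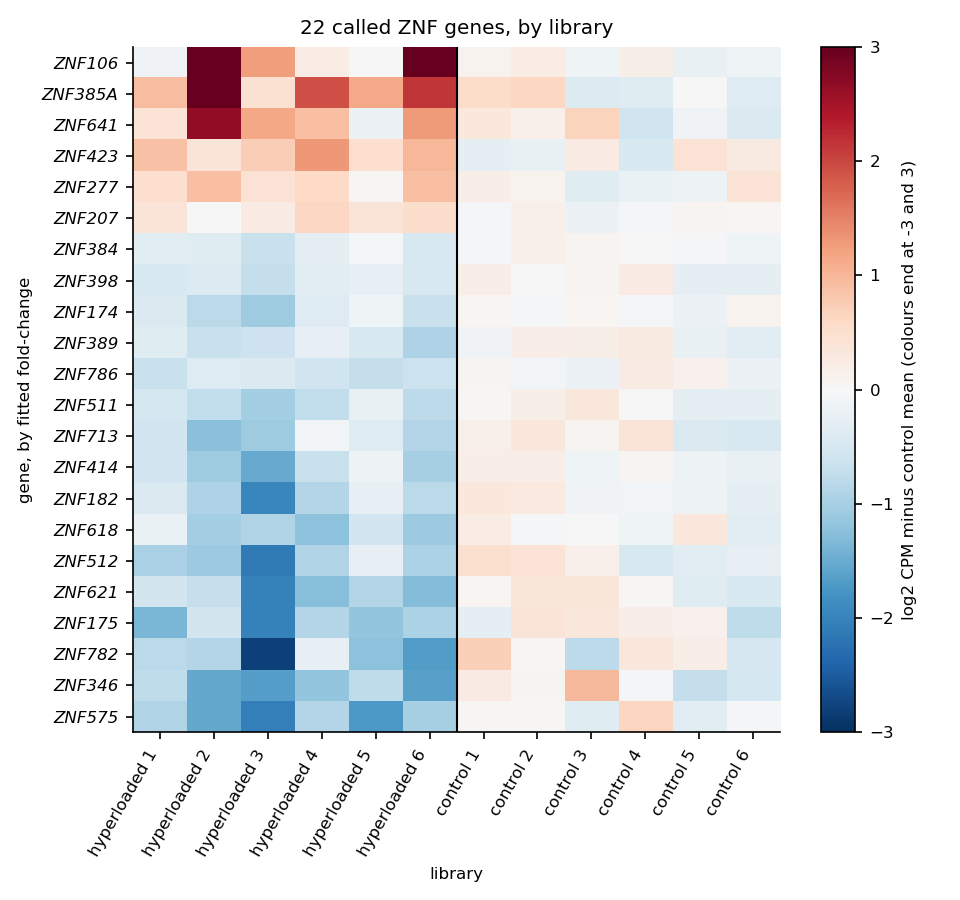
The 22 called members (rows, ordered by fitted fold-change) in the 6 Hyperloaded libraries on the left and the 6 Non-loaded Control libraries on the right, coloured by log2 CPM minus the mean of the controls (red higher, blue lower, colours ending at -3 and 3). The top rows are darkest in Hyperloaded 2 and 6, and most of the 16 lower rows are darkest in Hyperloaded 3.

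**Figure D5:**
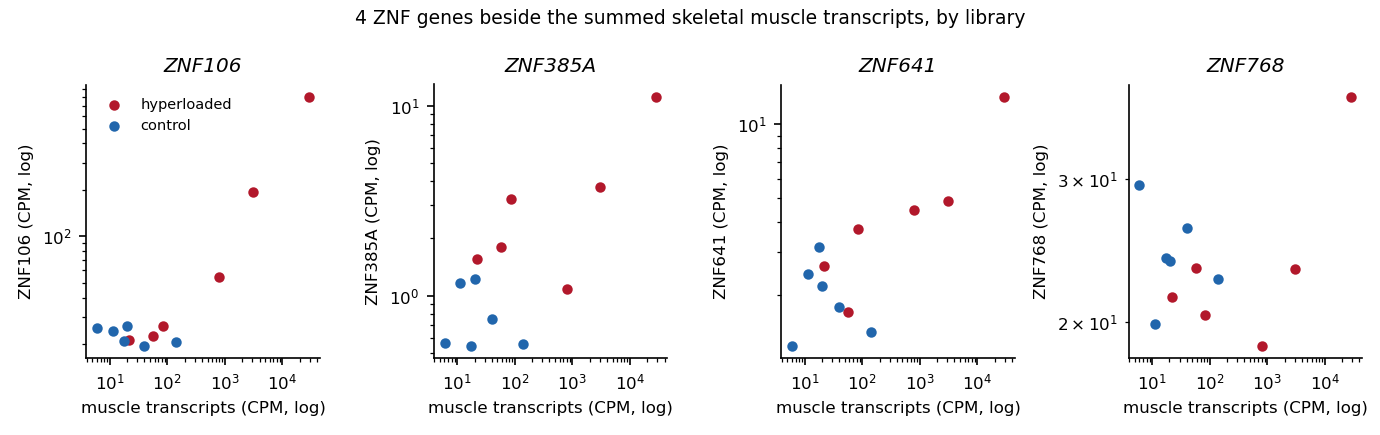
CPM of ZNF106, ZNF385A, ZNF641 and ZNF768 (vertical axes, log scale) against the summed CPM of skeletal muscle markers (horizontal axes, log scale) in each library, Hyperloaded in red and Non-loaded Control in blue. For ZNF106 the 3 Hyperloaded libraries with most muscle transcripts rank in the same order, and Hyperloaded 2 is highest for all 4 genes.

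The 155 members as a whole also ran lower in some libraries than in others. The median deviation of the 155 members from their own mean was -0.19 (log2) in Hyperloaded 3 and between -0.093 and 0.0065 in the other Hyperloaded libraries, against 0.14 to 0.16 in Non-loaded Controls 1 to 4 and -0.027 and -0.050 in Non-loaded Controls 5 and 6. Non-loaded Controls 5 and 6 thus lay among the Hyperloaded libraries on this measure. Chondrocyte markers ran with it in the controls, summing to 236373 to 688006 CPM in Non-loaded Controls 1 to 4 and to 183539 and 135202 CPM in Non-loaded Controls 5 and 6. They did not within the Hyperloaded group, where Hyperloaded 4, with 7626 CPM, had the highest deviation and Hyperloaded 1, with 163446 CPM, the second lowest. Their part was not tested. The members' counts together made 1449 to 2345 CPM of a Hyperloaded library and 1421 to 1676 CPM of a Non-loaded Control library. Without ZNF106 the Hyperloaded range was 1409 to 1543 CPM, against 1400 to 1650 CPM in Non-loaded Controls.

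What the members share was read from their RefSeq proteins. Of the 155, 138 matched a RefSeq gene by symbol. A finger was counted where a pair of cysteines 2 to 4 residues apart was followed after 12 residues by a pair of histidines 3 to 5 apart. A member was called tandem where 50% or more of the stretches between its fingers were 7 residues long, as in the ZNF175 stretch above, and spaced where fewer were, as in ZNF346, a split chosen after the values were seen. Of 94 tandem members, 1 rose and 9 fell, with a median log2 fold-change of -0.19 and 66 below 0 (70.2%). Of 35 spaced members, 5 rose and 5 fell, with a median of 0.018 and 17 below 0 (48.6%). The falls were 9.57% of the tandem and 14.3% of the spaced members, against 8.45% of all genes, and 10.8% of all genes rose. By this split all rises but that of ZNF641 were among spaced members. ZNF423 is spaced only by the rule and is not few-fingered. It has 27 fingers, with 3 of 26 stretches of 7 residues and others of 5, 6 or 8. ZNF641 sits at the cut, with 2 of 4 stretches of 7 residues. The difference between both kinds was not tested.

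By number of fingers, the 45 members with 1 to 6 held 5 of the rises and 8 of the falls, with a median of -0.012. The 57 members with 7 to 12 held 0 rises and 4 falls with a median of -0.15 (edgeR). The 32 members with 13 or more held 1 rise and 2 falls, with a median of -0.22 and 24 below 0. The falls were 17.8% of the members with 1 to 6 fingers, 7.02% with 7 to 12 and 6.25% with 13 or more. Of all genes 8.45% fell, 10.8% rose and 49.6% were below 0. A KRAB A box pattern was found within the first 400 residues of 46 members, of which 1 rose, 5 fell and 32 were below 0, with a median of -0.22. The 92 without the pattern had 5 rises, 9 falls and a median of -0.085. With the pattern 69.6% were below 0 and 10.9% fell, and without it 57.6% were below 0 and 9.78% fell. The pattern also occurred in 29 of 18826 RefSeq proteins with no finger, and its absence says only that these letters were not found.

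Near-identical copies could split reads between members. Of the 138 matched members, 9 shared any 50-base stretch of coding sequence with another gene, and 2, ZNF212 and ZNF789, shared over 5% of their stretches. None of these 9 was called. The deposited counts were nevertheless mostly fractional, with 132 of the 155 members having no value within 0.01 of a whole number, and how reads were divided among features is not given in the sources used here.

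The 138 matched members were spread over 18 chromosomes, with 36 on chromosome 6 and 18 on chromosome 3. On chromosome 3, 16 of the 18 (88.9%) were below 0 with 3 (16.7%) called lower, and on chromosome 2, 9 of the 10 (90%) with 2 (20%) called lower. On chromosome 6, 20 of the 36 (55.6%) were below 0 with 1 called higher and 2 (5.56%) lower. Of all 155 members 64.5% were below 0 and 10.3% fell, against 49.6% and 8.45% of all genes. Members often lie in clusters. The 9 members at chr6:45520885-46328237, 7 of them with a KRAB A box, had a median of 0.085 and no call (edgeR; ZNF146 to ZNF527), while the 5 at chr3:16957875-17925593 (ZNF713, ZNF668, ZNF629, ZNF768 and ZNF48) were all below 0 with a median of -0.39. Other clusters were wholly below 0 too, among them the 4 members at chr6:59619677-59736406, with a median of -0.34. In these 2 clusters ZNF768 at -0.0063 and ZNF524 at -0.046 were barely below 0. Further clusters were mixed, with 4 of 5 below 0 at chr3:38805861-39105633, 3 of 5 at chr6:50395042-51008492 and 2 of 3 at chr6:62754034-63004841.

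A further run of neighbours was found after the values were seen. ZNF389 lies at chr7:22007384-22011998 and was 2.46 to 3.97 CPM in Hyperloaded annuli, against 3.797 to 5.69 CPM in Non-loaded Controls, a log2 fold-change of -0.57 ± 0.17 (edgeR adjusted p = 0.0330). Downstream of it on the same strand come the tested genes ZSCAN9, ZKSCAN4, ZSCAN26 and PGBD1, a domesticated transposase gene, and all of these fell as well, with log2 fold-changes of -1.08, -1.04, -0.90 and -0.49 (edgeR adjusted p = 0.0479, 0.0111, 0.0118 and 0.0344). The next tested neighbours, ZSCAN31 and ZSCAN12 on the minus strand, were at -0.12 and 0.021 and were not called. Of all genes 8.45% fell, and as the stretch was picked with the values known, its count of falls is no test. ZSCAN26 had no overlap between the groups, with 1.40 to 2.51 CPM in Hyperloaded annuli, against 2.63 to 4.89 CPM in Non-loaded Controls. ZSCAN26 and PGBD1 overlap on the genome, and reads from the overlap cannot be assigned to 1 of them. Without Hyperloaded 2, 3 and 6 the 5 values were -0.38, -0.59, -0.85, -0.81 and -0.35 and none was called (edgeR).

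Genes of the corepressor machinery that KRAB proteins use moved in both directions. Of 21 tested from that list, 1 rose (4.76%, against 10.8% of all genes) and 2 fell (9.52%, against 8.45% of all genes), with a median of 0.0048. At an unadjusted p under 0.05, 5 were lower (23.8%, against 17.3% of all genes). MORC3, a nuclear ATPase that binds a histone mark of active promoters, was 8.13 to 11.7 CPM in Hyperloaded annuli, against 5.00 to 6.99 CPM in Non-loaded Controls, with no overlap and a log2 fold-change of 0.72 ± 0.13 (edgeR adjusted p = 0.00644). MORC2, a related ATPase that works with the HUSH silencing complex, was 20.9 to 36.7 CPM in Hyperloaded annuli, against 31.9 to 53.1 CPM in Non-loaded Controls, at -0.65 ± 0.17 (edgeR adjusted p = 0.0208). SETDB1, the methyltransferase that TRIM28 brings to KRAB targets, was 18.1 to 25.9 CPM in Hyperloaded annuli, against 21.7 to 36.6 CPM in Non-loaded Controls, at -0.42 ± 0.13 (edgeR adjusted p = 0.0473). DNMT1 was at -0.40 and missed the threshold (edgeR adjusted p = 0.0546). TRIM28 itself was not analysed here.

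Related zinc finger families, each defined by its symbol, gave small counts, to be read beside the 10.8% of all genes that rose and the 8.45% that fell. Of 7 ZSCAN genes 2 fell (ZSCAN26 and ZSCAN9), and of 3 ZKSCAN genes 1 fell (ZKSCAN4), with medians of -0.38 and -0.29. Of 23 ZBTB genes 3 rose and 3 fell, with a median of -0.090. ZBTB10 was 62.9 to 129 CPM in Hyperloaded annuli, against 36.0 to 52.9 CPM in Non-loaded Controls, at 0.96 ± 0.17 (edgeR adjusted p = 0.00691). ZBTB40 was 11.2 to 13.8 CPM in Hyperloaded annuli, against 15.8 to 24.0 CPM in Non-loaded Controls, at -0.56 ± 0.12 (edgeR adjusted p = 0.0107). The other calls were ZBTB2 and ZBTB33, which rose, ZBTB7B, which fell, and ZBTB8OS, which fell and carries the name without being a ZBTB protein.

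Of 11 ZFP genes 3 rose and 1 fell, with a median of 0.16. The largest rise was in ZFP36, which with ZFP36L1 differs from the rest of that list in having CCCH fingers that bind AU-rich mRNAs and lead them to decay. ZFP36 was 98.8 to 348 CPM in Hyperloaded annuli, against 23.3 to 55.4 CPM in Non-loaded Controls, at 2.24 ± 0.31 (edgeR adjusted p = 0.00329). ZFP36L1 was 227 to 472 CPM in Hyperloaded annuli, against 119 to 223 CPM in Non-loaded Controls, at 0.89 ± 0.23 (edgeR adjusted p = 0.0201). ZFP2 was 29.4 to 38.1 CPM in Hyperloaded annuli, against 20.0 to 23.4 CPM in Non-loaded Controls, at 0.67 ± 0.094 (edgeR adjusted p = 0.00329), and ZFP62 fell, at -0.73 ± 0.17 (edgeR adjusted p = 0.0138). Of 8 ZC3H genes, a CCCH family, 1 fell (ZC3H4, at -0.85 ± 0.27), with a median of 0.048. Without Hyperloaded 2, 3 and 6, ZBTB10, ZFP36 and ZFP2 were still called (edgeR adjusted p = 0.0236, 0.0174 and 0.0190).

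At the other end, ZNF34, ZNF768 and ZNF25 had the smallest differences among members with a mean of at least 10 CPM. ZNF34 was 8.51, 10.3 and 11.6 CPM in Hyperloaded annuli, against 8.76, 10.2 and 11.4 CPM in Non-loaded Controls, with a 95% interval of the log2 fold-change from -0.25 to 0.25. ZNF25 had an interval from -0.26 to 0.29 and ZNF768 one from -0.38 to 0.37. The row that the study names ZNF793 carries no symbol in the table used here and is no member. It measured 4.49 ± 2.87 CPM in Hyperloaded and 8.75 ± 0.92 CPM in Non-loaded Control annuli (SD, n = 6 each) and was not called (ENSSSCG00000030281, edgeR adjusted p = 0.0767).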

How the data were processed

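RNA was measured by poly-A selected, TruSeq-prepared sequencing of 12 libraries. Per the study's methods, the authors called bases with CASAVA 1.6, mapped reads to Sscrofa11.1 with JMP Genomics 7.1, allowing 2 mismatches a read, and deposited estimated counts per Ensembl gene, not normalized and mostly fractional. Strand was not used as far as is stated, so overlapping genes cannot be told apart. The estimated counts were rounded, genes reaching 10 in all libraries of either group were kept, and edgeR 4.0.16 (R 4.3.3) fitted all 12 libraries (TMM on full library totals, quasi-likelihood test, Benjamini-Hochberg, adjusted p under 0.05), with SE taken as the log2 fold-change over the root of F. Without rounding, 154 members would have passed. Symbols came from an Ensembl ID table for 52.7% of rows, proteins and sequences from RefSeq's Sscrofa11.1 genes with pysam 0.24.0. The fit was tested on simulated data.

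Groups came from the treatment labels. Replicate numbers do not mark a shared pig. Named genes were ZNF346, up to 10 called members a direction with no overlap (filled to 5 by smallest p), called members of the role lists, members the study tabulated (ZNF621, which it also tabulated, entered by its values), the 3 with a mean of at least 10 CPM and the least change, and up to 4 genes by smallest p of each related list. Others were named after their values were seen. The members and lists were chosen with earlier results of these data known. Alternatives were other scalings (RLE, upper quartile, totals), no count minimum, DESeq2 1.42.0, limma 3.58.1 voom with sample weights, the replicate number as a block, the thresholds of the study, and subsets of libraries.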

Additional observations from a re-analysis of the deposited data

Results flagged for a closer look

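In 27 members and 54 groups of 6 libraries examined, 1 library stood apart from the rest of its group by Dixon's criterion (the 95% critical value for 6 samples, on log2 CPM), where chance alone gives about 1 in 20 groups. ZNF768, a member whose groups did not differ, measured 37.9 CPM in Hyperloaded 2, against 18.7 to 23.3 CPM in the other Hyperloaded libraries and 19.8 to 29.5 CPM in Non-loaded Controls. Hyperloaded 2 is also the library with most skeletal muscle transcripts (28971 CPM), and whether that bears on ZNF768 was not tested.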

How the results depend on the processing

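Against 6 members called higher and 16 lower, upper quartile scaling gave 3 higher, totals alone 3 lower with a median of 0.12, no count minimum 3 higher, limma voom 26 lower, and the thresholds of the study 3 higher and 6 lower. DESeq2's test gave 9 higher and 22 lower. The shares of all genes moved as well. At an unadjusted p under 0.05 (the test of each fit), 19.2% of all genes were higher and 17.3% lower with TMM. These shares were 15.8% and 21.5% with upper quartile scaling, 30.5% and 5.99% with totals alone, and 16.9% and 13.7% with no count minimum. They were 20.9% and 21.6% with limma voom, and 21% and 17.6% with DESeq2. Leaving out 1 library in turn gave 2 to 7 members higher, 7 to 19 lower, medians of -0.20 to -0.14 and ZNF346 at -1.45 to -1.08. The higher count fell to 3 or fewer without Hyperloaded 3, 4 or 6 or any of Non-loaded Controls 1 to 5, and the lower count to 8 without Hyperloaded 6, 7 without Non-loaded Control 2 and 10 without Non-loaded Control 3 or 4. Over those fits 16.6% to 20.9% of all genes were higher and 14.3% to 19.6% lower at an unadjusted p under 0.05 (edgeR). In these 12 fits 2 rises (ZNF385A and ZNF423) and 7 falls (ZNF575, ZNF175, ZNF618, ZNF511, ZNF346, ZNF786 and ZNF621) were called each time. Of these, ZNF385A reached the count minimum in Hyperloaded libraries alone, and ZNF575 and ZNF175 in Non-loaded Controls alone. How many of all genes were called each time was not counted. Without Hyperloaded 2, 3 and 6 there were 0 higher and 0 lower (edgeR), and ZNF346 was at -1.01; 1% of all genes were then called higher and 0.315% lower. Over every choice of 4 of the 6 Hyperloaded libraries, 0 to 7 members were higher and 1 to 23 lower, and ZNF346 lay between -1.64 and -1.16. The share of all genes called in those choices is not given here. The cause of these shifts was not tested.

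With the replicate number as a block, 3 members were higher and 9 lower, and ZNF346 was at -1.27. At an unadjusted p under 0.05 (edgeR), 17.5% of all genes were then higher and 17.4% lower. The groups are different pigs, and same-numbered libraries correlated at -0.12 to 0.26, so the numbers do not pair them. Every called member kept its sign in all 23 alternatives. Members of low level, such as ZNF782 with 2 counts in a library, are limited by depth.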
